A study of Arabidopsis thaliana with 6 samples.

Results

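The genes examined were the 10 photoreceptor genes of *Arabidopsis thaliana*, namely the phytochrome genes *PHYA* to *PHYE*, the cryptochrome genes *CRY1* and *CRY2*, the phototropin genes *PHOT1* and *PHOT2*, and the UV-B receptor gene *UVR8*. They were taken by gene ID out of 27372 genes, and all 10 were among the 19839 genes that were tested. Their mRNA was measured by RNA-seq in the wild type Col-0 and in *fer-4*, 1 insertion mutant line of *FERONIA* (*FER*), a receptor-like kinase gene, with 3 libraries per genotype. Plants of both genotypes were 7 days old, had been kept on MS-agar in long days under moderately elevated light (ML, given as 154 in the labels), and were taken as whole seedlings at zeitgeber time 3. *FER* mRNA was at 56.5, 62.6 and 64.6 FPKM (fragments scaled to transcript length and library size) in the Col-0 libraries and at 0.0905, 0.0270 and 0.0438 FPKM in the *fer-4* libraries, as the genotype labels say.

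Photoreceptors report light of different colors to the plant. Phytochromes take up red and far-red light through a bound bilin and switch between an inactive and an active form, and the active form acts in the nucleus on PHYTOCHROME INTERACTING FACTOR (PIF) proteins. Cryptochromes bind a flavin and respond to blue light in seedling greening and flowering. Phototropins are blue light-activated kinases at the plasma membrane that direct phototropism, chloroplast movement and stomatal opening. UVR8 senses UV-B through its own tryptophans and turns on sunscreen synthesis.

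The FPKM totals of the 6 libraries were between 910619 and 1058751, between 21824 and 22015 genes were above 0, and the read depth is unknown because only FPKM values were used. *fer-4* replicate 1 stood apart from the other *fer-4* libraries by transcript length. Its median log2 difference from the other *fer-4* libraries was 0.34 for transcripts under 1000 bases and -0.73 for those over 4000 bases, whereas the same difference stayed between -0.05 and 0.04 in each Col-0 library and class. This touched the photoreceptor genes, whose transcripts are long, with 2209 bases in *UVR8*, 4321 bases in *PHYB* and a median of 3626 bases. Of all tested genes with a known length, 75.2% were shorter than *UVR8* and 95.2% were shorter than the photoreceptor median. *fer-4* replicate 1 was the lowest of the 6 libraries in 10 of 10 photoreceptor genes and in 26.7% of all tested genes. The genes were therefore fitted with all libraries, without *fer-4* replicate 1, and after an adjustment of each library for transcript length, and the plot of log2 fold changes shows all 3 fits for each photoreceptor gene. Values are from all 6 libraries where no other fit is named. The part of this length difference in the results was not tested beyond these values, and its source was not tested.

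**Figure D1:**
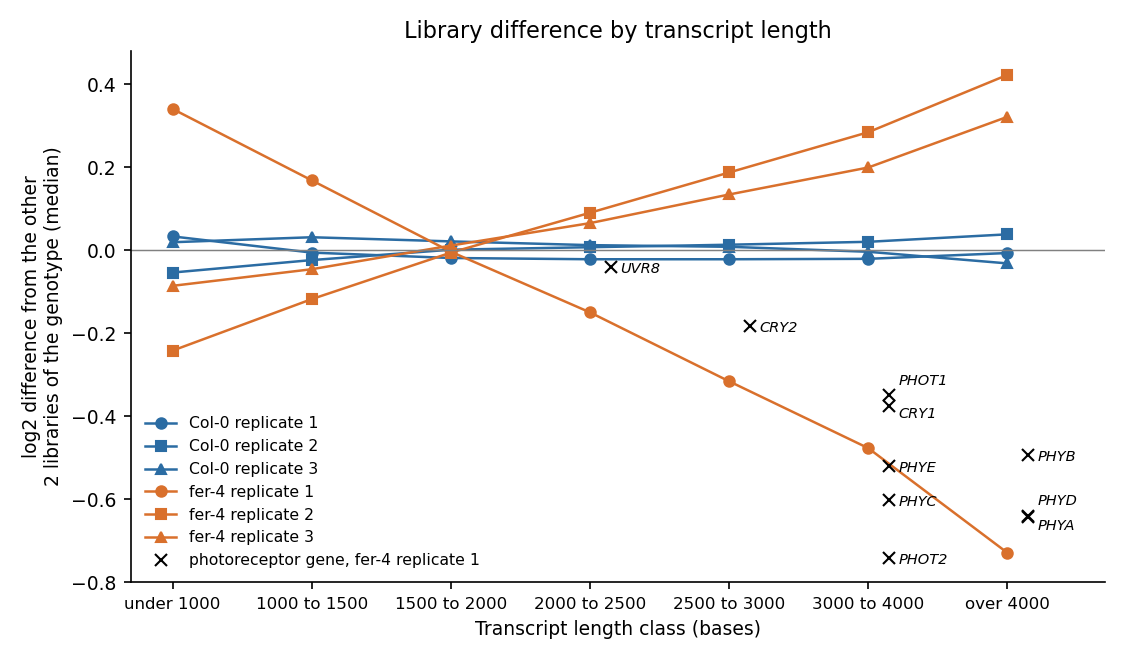
Median log2 difference of each library from the other 2 of its genotype (y axis) over transcript length classes in bases (x axis), with the *fer-4* replicate 1 values of the 10 photoreceptor genes as crosses. The line of *fer-4* replicate 1 runs from 0.34 to -0.73 while the Col-0 lines stay near 0, and the crosses lie between -0.04 (*UVR8*) and -0.74 (*PHOT2*).

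Sequences that help to place the measurements are shown first. They are the 250 bases before the annotated start in TAIR10.1 of *PHOT1* and *CRY2*, which were lower in *fer-4*, and of *PHYB*, which did not pass the test. Capitals mark the G-box CACGTG, a site that PIF and HY5 proteins are known to bind, wherever it was found.
PHOT1, chr3:16816471-16816720, plus strand: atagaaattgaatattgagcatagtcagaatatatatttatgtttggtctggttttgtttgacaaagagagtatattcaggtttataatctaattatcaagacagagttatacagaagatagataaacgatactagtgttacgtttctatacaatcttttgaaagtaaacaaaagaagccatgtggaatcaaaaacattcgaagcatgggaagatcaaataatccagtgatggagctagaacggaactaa
CRY2, chr1:1188697-1188946, minus strand: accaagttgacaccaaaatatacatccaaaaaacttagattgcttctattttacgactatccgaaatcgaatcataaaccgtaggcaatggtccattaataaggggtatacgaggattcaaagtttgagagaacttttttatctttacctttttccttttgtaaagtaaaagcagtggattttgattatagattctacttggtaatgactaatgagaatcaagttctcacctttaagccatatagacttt
PHYB, chr2:8139506-8139755, plus strand: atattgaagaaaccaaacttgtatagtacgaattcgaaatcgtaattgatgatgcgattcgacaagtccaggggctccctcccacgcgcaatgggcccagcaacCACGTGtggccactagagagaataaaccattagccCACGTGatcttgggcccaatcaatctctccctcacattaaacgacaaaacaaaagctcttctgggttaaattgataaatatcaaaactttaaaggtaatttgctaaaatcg
The *PHYB* window held 2 G-boxes and that of *PHYD* held 1, so 2 of 10 photoreceptor genes had the motif, against 6.49% of 27443 promoter windows of equal length. None of the 10 windows held the I-box GATAAG, found in 12.3% of all windows, or the evening element AAAATATCT, found in 2.36%. Of the other motifs searched, TATAAA was in 3 of 10 (47.3% of all windows) and CCAAT in 5 of 10 (46% of all windows). Both strands were searched, and the windows of *PHYD*, *PHYE* and *PHOT2* overlap another gene and are not shown.

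The receptors within a family are paralogs, and the longest stretch of identical coding bases was found for pairs of them. How reads were divided between paralogs was not tested. The closest pair was *PHYB* and *PHYD*, with 79.8% identity over 3462 aligned coding bases. Their longest shared run has 43 bases, at coding positions 1946 to 1988 of *PHYB* and 1958 to 2000 of *PHYD*. *PHOT1* and *PHOT2* had 60.9% identity and a longest run of 35 bases, at coding positions 1666 to 1700 and 1408 to 1442. The shared runs are printed in lower case.
PHYB and PHYD: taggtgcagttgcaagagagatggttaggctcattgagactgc
PHOT1 and PHOT2: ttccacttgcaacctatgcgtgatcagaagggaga
*CRY1* and *CRY2* had 58.7% identity and a longest run of 17 bases, and *PHYA* and *PHYB* had 57.5% and 21 bases. *PHYE* overlaps AT4G18140 on the same strand and *PHOT2* overlaps AT5G58150 on the other strand, so their levels are less certain than those of the remaining genes. AT4G18140 averaged 7.22 ± 0.561 FPKM in Col-0 seedlings against 8.03 ± 1.19 FPKM in *fer-4* seedlings (SD, n = 3). AT5G58150 averaged 7.98 ± 0.105 FPKM in Col-0 seedlings against 8.43 ± 1.73 FPKM in *fer-4* seedlings (SD, n = 3). Neither neighbor passed the test (adjusted p = 0.449 and 0.798, limma).

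In Col-0 seedlings, the blue light receptor genes were the highest and the phytochrome genes the lowest of the photoreceptors on the FPKM scale, which is per transcript length. *PHOT1* (62.6 to 67.3 FPKM) and *CRY2* (60.9 to 66.7 FPKM) overlapped at the top. *CRY1* followed without overlap at 51.8 to 55.6 FPKM. *PHOT2* (38.3 to 42.4 FPKM) and *UVR8* (35.7 to 38.9 FPKM) overlapped in turn. *PHYB* (24.5 to 24.7 FPKM) and *PHYA* (24.1 to 24.6 FPKM) could not be separated, and below them *PHYE*, *PHYC* and *PHYD* were distinct steps at 15.7 to 16.6, 9.27 to 9.95 and 4.19 to 4.61 FPKM. Against all tested genes, the Col-0 level of *PHOT1* lay at percentile 87.5, that of *CRY2* at 87.4 and that of *PHYD* at 25.3.

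The order of the means was different in *fer-4* seedlings. There *CRY2* (44.1 to 51.3 FPKM) overlapped with *CRY1* (35.9 to 46.9 FPKM), *CRY1* with *PHOT1* (34.5 to 49.2 FPKM) and *PHOT1* with *UVR8* (35.5 to 36.7 FPKM). *PHOT2* came next by its mean, at 18.8 to 35.2 FPKM. It lay below *UVR8* without overlap, but overlapped with *PHOT1* and with *PHYB* (18.2 to 26.0 FPKM). *PHYD* was the lowest in both genotypes, at 2.98 to 4.70 FPKM in *fer-4*. The summed FPKM of the 10 genes averaged 337.5 ± 6.92 in Col-0 seedlings against 264.4 ± 39.1 in *fer-4* seedlings (SD, n = 3), which is 78.4% of Col-0, or 84.8% without *fer-4* replicate 1.

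**Figure D2:**
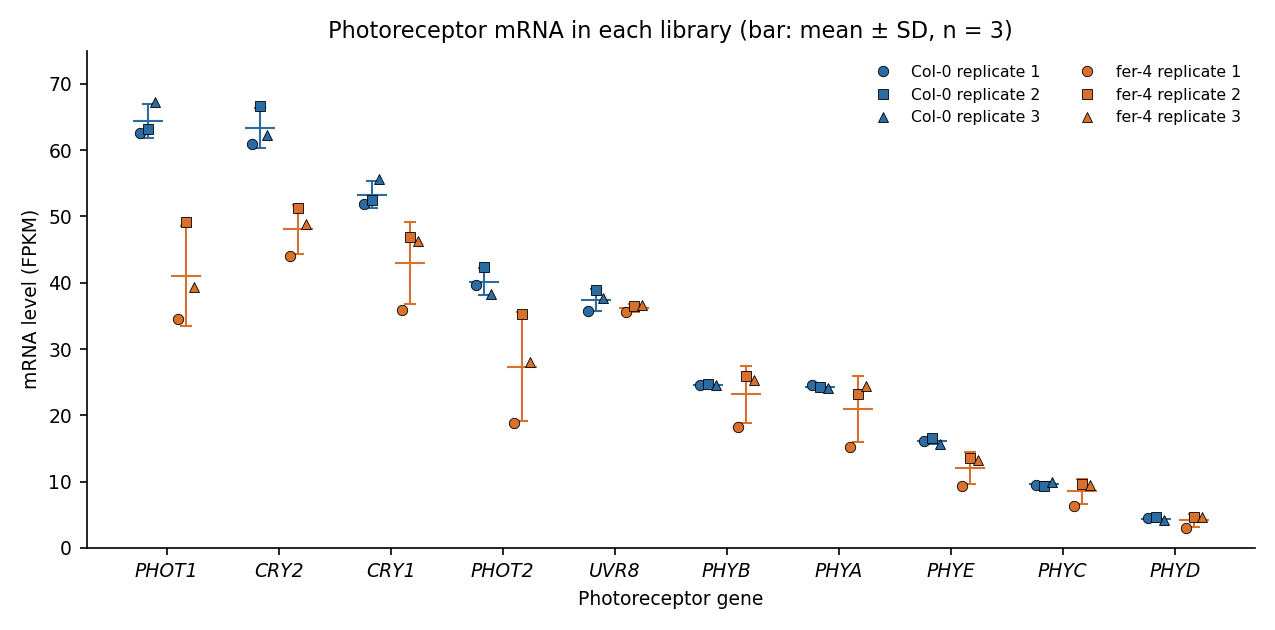
FPKM (y axis) of each photoreceptor gene (x axis) in the 3 Col-0 and 3 *fer-4* libraries, with the mean and SD of each genotype as bars. In *PHOT1*, *CRY2*, *CRY1*, *PHOT2* and *PHYE* every *fer-4* point lies below every Col-0 point, and *fer-4* replicate 1 is the lowest point of all 10 genes.

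The comparison of *fer-4* with Col-0 asked which photoreceptor mRNAs differ under ML when *FER* is disrupted. *PHOT1*, *CRY2* and *PHYE* fell in *fer-4*, 7 photoreceptor genes did not pass the test and none rose (limma on log2(FPKM + 0.1), adjusted p under 0.05). Over all tested genes 16.0% fell and 18.0% rose at this adjusted p. At an unadjusted p under 0.05, 5 of the 10 were lower, against 21.3% of all tested genes, and 0 were higher, against 23.1%. With *fer-4* replicate 1 left out, 4 of 10 fell, with *PHOT2* added, against 18.7% of all tested genes. With the length adjustment 5 of 10 fell, with *PHOT2* and *CRY1* added, against 19.9% of all tested genes. Every *fer-4* library was below every Col-0 library in 5 of 10 genes, against 25.1% of all tested genes. The number that fell also moved when another library was left out. It was 1 (*PHOT1*) without Col-0 replicate 2, where 2057 of 19814 tested genes fell. It was 5 without *fer-4* replicate 2, where 3055 of 19836 tested genes fell. With all 6 libraries 3170 of 19839 fell. None of the 10 reached the study's limits for a DEG (an adjusted p of at most 0.01 and at least a 2-fold change), which 8.89% of all tested genes reached.

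The median log2 fold change of the 10 genes was -0.28, and that of all tested genes was -0.01. Tested genes of like length had lower medians, of -0.03 (2000 to 2500 bases), -0.10 (2500 to 3000), -0.16 (3000 to 4000) and -0.26 (over 4000). In these classes 17.2, 16.3, 14.4 and 6.43% fell. The median of the 10 genes was -0.11 without *fer-4* replicate 1 and -0.11 with the length adjustment, where that of all tested genes was 0.01 and 0.02. All 10 values were below 0 in the 6 libraries, but 7 were without *fer-4* replicate 1 and 8 with the length adjustment. Of all calls, 53.0% were higher in *fer-4*, and this share was 42.2% after quantile normalization and 42.5% after upper quartile scaling. Under each of these scalings 5 photoreceptor genes fell, where 4203 and 3971 of 19839 tested genes fell, against 3170 without them. The median of all tested genes was -0.08 and -0.09 under these scalings.

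**Figure D3:**
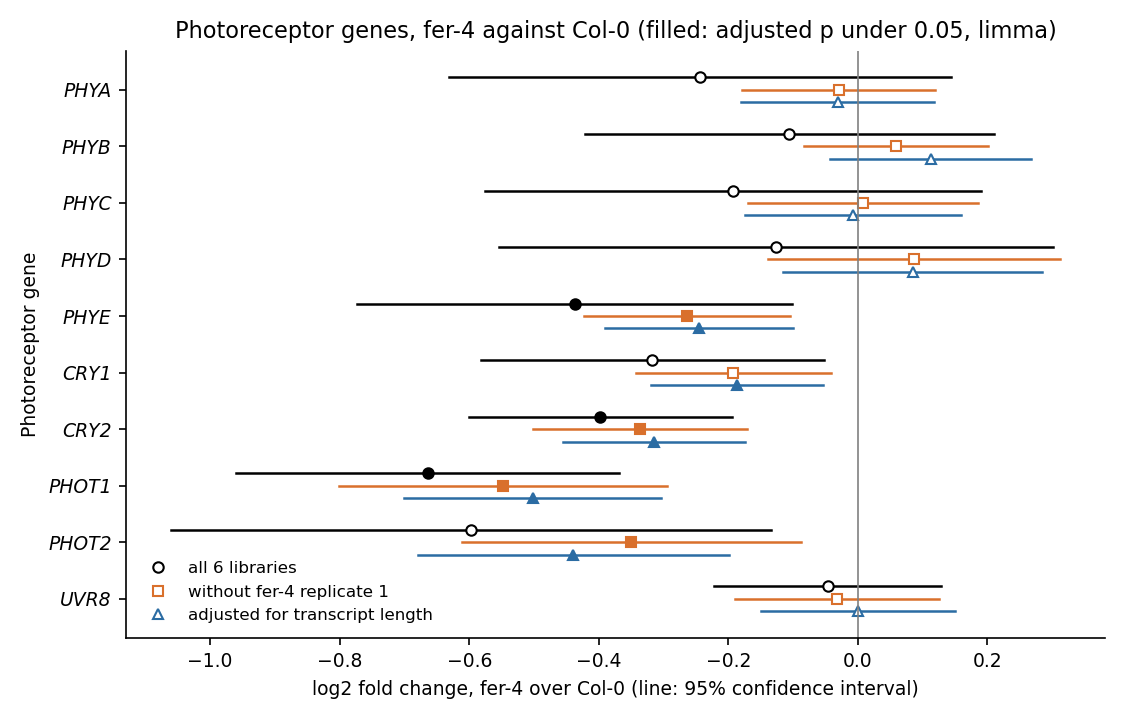
log2 fold change between *fer-4* and Col-0 (x axis) with its 95% confidence interval for each photoreceptor gene (y axis), from all 6 libraries (circles), without *fer-4* replicate 1 (squares) and with the length adjustment (triangles). Filled symbols passed an adjusted p under 0.05 by limma, which *PHOT1*, *CRY2* and *PHYE* did in all 3 fits.

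The phototropin genes showed the lowest *fer-4* levels relative to Col-0. *PHOT1* (AT3G45780, chromosome 3, 16816721 to 16824210, plus strand), the main phototropin of phototropism, had levels of 62.6, 63.2 and 67.3 FPKM in Col-0 seedlings against 34.5, 49.2 and 39.3 FPKM in *fer-4* seedlings. The groups did not overlap, and the mean of *fer-4* was 63.7% of that of Col-0. *PHOT1* fell by 0.66 (log2, standard error 0.13, adjusted p = 0.00531, limma). It still fell without *fer-4* replicate 1, by 0.55 (adjusted p = 0.00833), and with the length adjustment, by 0.50 (adjusted p = 0.00246). *PHOT2* (AT5G58140, chromosome 5, 23523825 to 23533111, plus strand), which drives chloroplast avoidance of strong light, had levels of 39.7, 42.4 and 38.3 FPKM in Col-0 seedlings against 18.8, 35.2 and 28.1 FPKM in *fer-4* seedlings. Its groups did not overlap either, but its *fer-4* libraries were the most scattered among the photoreceptor genes, at 27.4 ± 8.26 FPKM (SD, n = 3). The log2 fold change of *PHOT2* was -0.60 (95% confidence interval -1.06 to -0.13) and missed the threshold over all 6 libraries (adjusted p = 0.0515, limma). *PHOT2* fell by 0.35 without *fer-4* replicate 1 (adjusted p = 0.0447), and with the length adjustment by 0.44 (adjusted p = 0.0108). The summed phototropin mRNA averaged 104.5 ± 1.94 FPKM in Col-0 seedlings against 68.4 ± 15.6 FPKM in *fer-4* seedlings (SD, n = 3), or 75.9 FPKM without *fer-4* replicate 1.

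The cryptochrome genes had smaller differences. *CRY2* (AT1G04400, chromosome 1, 1185512 to 1188696, minus strand), whose protein is broken down in blue light and promotes flowering, was at 60.9, 66.7 and 62.3 FPKM in Col-0. In *fer-4* *CRY2* was at 44.1, 51.3 and 48.8 FPKM, with no overlap. It fell by 0.40 (log2, standard error 0.09, adjusted p = 0.00983, limma), by 0.34 without *fer-4* replicate 1 (adjusted p = 0.0103) and by 0.31 with the length adjustment (adjusted p = 0.0044). Without Col-0 replicate 2, *CRY2* no longer passed (adjusted p = 0.0514). *CRY1* (AT4G08920, chromosome 4, 5723651 to 5727268, plus strand), the light-stable cryptochrome of seedling greening and growth control, had levels of 51.8, 52.5 and 55.6 FPKM in Col-0 seedlings against 35.9, 46.9 and 46.3 FPKM in *fer-4* seedlings. The groups did not overlap, yet the log2 fold change of -0.32 (95% confidence interval -0.58 to -0.05) did not pass (adjusted p = 0.0652, limma). It was -0.19 without *fer-4* replicate 1 (adjusted p = 0.0521), and *CRY1* passed with the length adjustment at -0.19 (adjusted p = 0.0315). The log2 ratio of *CRY1* to *CRY2* was -0.25 ± 0.092 in Col-0 and -0.17 ± 0.114 in *fer-4* (SD, n = 3), a difference that did not pass (exact permutation p = 0.4, 2-sided, 0.6 adjusted over 4 ratios). The difference of 0.0807 was 0.145 without *fer-4* replicate 1, 0.0316 without Col-0 replicate 2, 0.123 without Col-0 replicate 3 and 0.035 without *fer-4* replicate 3.

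The ratio of the phototropins overlapped between the genotypes. The log2 ratio of *PHOT1* to *PHOT2* was 0.66, 0.58 and 0.81 in Col-0 and 0.88, 0.48 and 0.49 in *fer-4* (exact permutation p = 0.6, 2-sided, 0.6 adjusted over 4 ratios). The difference of -0.0663 became -0.198 without *fer-4* replicate 1, whose value was the highest of the 6, and both other *fer-4* values lay below every Col-0 value (exact permutation p = 0.2, the smallest that 3 against 2 libraries allow). It was -0.118 without Col-0 replicate 2 and close to 0 without Col-0 replicate 3 (-0.00103), *fer-4* replicate 2 (0.000334) or *fer-4* replicate 3 (-0.00138). With 3 libraries against 3, the smallest 2-sided p such a test can give is 0.1.

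Among the phytochrome genes *PHYE* fell and the others did not pass. *PHYE* (AT4G18130, chromosome 4, 10042137 to 10046346, minus strand), a light-stable phytochrome that acts with phyB, had levels of 16.1, 16.6 and 15.7 FPKM in Col-0 seedlings against 9.32, 13.5 and 13.3 FPKM in *fer-4* seedlings. The groups were apart, and *PHYE* fell by 0.44 (log2, standard error 0.15, adjusted p = 0.0499, limma). The call was at the threshold, and it was lost without any of the Col-0 replicates 1, 2 and 3 (adjusted p = 0.128, 0.137 and 0.106) and without *fer-4* replicate 3 (adjusted p = 0.0509). *PHYE* fell by 0.26 without *fer-4* replicate 1 (adjusted p = 0.0214), and with the length adjustment by 0.25 (adjusted p = 0.015).

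*PHYA* (AT1G09570, chromosome 1, 3095160 to 3100819, minus strand), the receptor of far-red light that is unstable in the light, had levels of 24.6, 24.2 and 24.1 FPKM in Col-0 seedlings against 15.2, 23.2 and 24.4 FPKM in *fer-4* seedlings. Only *fer-4* replicate 1 of these was far from the rest. The log2 fold change of *PHYA* was -0.24 (95% confidence interval -0.63 to 0.14, adjusted p = 0.299, limma), and -0.03 without that library (-0.18 to 0.12). *PHYB* (AT2G18790, chromosome 2, 8139756 to 8144461, plus strand), the main red light receptor of green seedlings, had levels of 24.5, 24.7 and 24.6 FPKM in Col-0 seedlings against 18.2, 26.0 and 25.3 FPKM in *fer-4* seedlings. Both other *fer-4* values of *PHYB* were above all those of Col-0, and without *fer-4* replicate 1 the sign of its log2 fold change turned from -0.11 (95% confidence interval -0.42 to 0.21, adjusted p = 0.586) to 0.06 (-0.08 to 0.20, adjusted p = 0.464). It was 0.11 with the length adjustment (adjusted p = 0.209).

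*PHYC* (AT5G35840), which works in dimers with phyB, had levels of 9.45, 9.27 and 9.95 FPKM in Col-0 seedlings against 6.30, 9.67 and 9.55 FPKM in *fer-4* seedlings. *PHYD* (AT4G16250), the closest paralog of *PHYB*, had levels of 4.46, 4.61 and 4.19 FPKM in Col-0 seedlings against 2.98, 4.70 and 4.70 FPKM in *fer-4* seedlings. Neither passed (adjusted p = 0.406 and 0.634, limma), and without *fer-4* replicate 1 their log2 fold changes of -0.19 and -0.13 became 0.01 (95% confidence interval -0.17 to 0.19) and 0.09 (-0.14 to 0.31). The summed phytochrome mRNA averaged 79.0 ± 0.423 FPKM in Col-0 seedlings against 68.8 ± 14.5 FPKM in *fer-4* seedlings (SD, n = 3). It was 77.2 FPKM without *fer-4* replicate 1, which is 97.7% of Col-0.

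The share of each gene in the summed phytochrome FPKM does not depend on how a library is scaled. *PHYE* had 20.4, 20.9 and 20.0% in Col-0 and 17.9, 17.5 and 17.2% in *fer-4*. *PHYB* had 31.0, 31.2 and 31.4% in Col-0 and 35.0, 33.7 and 32.8% in *fer-4*. The genotypes did not overlap in either share, and the difference of the means was -2.84 percentage points for *PHYE* and 2.66 for *PHYB*, or -3.03 and 2.08 without *fer-4* replicate 1. Each had the smallest exact permutation p that the design allows (0.1, 2-sided, 0.25 adjusted over the 5 shares), so neither passed 0.05. *PHYA* had 30.7 ± 0.291% and 30.3 ± 1.19%, *PHYC* 12.1 ± 0.512% and 12.3 ± 0.214%, and *PHYD* 5.60 ± 0.241% and 5.97 ± 0.206% (SD, n = 3), and in each of these the genotypes overlapped. The log2 ratio of *PHYA* to *PHYB* was -0.02 ± 0.0201 in Col-0 and -0.16 ± 0.103 in *fer-4* without overlap (exact permutation p = 0.1, 2-sided, 0.4 adjusted over 4 ratios), and the difference of -0.139 was -0.0887 without *fer-4* replicate 1. That of *PHYD* to *PHYB* was -2.48 ± 0.0689 and -2.50 ± 0.0947 (exact permutation p = 0.6, 2-sided, 0.6 adjusted over 4 ratios), and its difference of -0.0238 was 0.0298 without *fer-4* replicate 1.

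**Figure D4:**
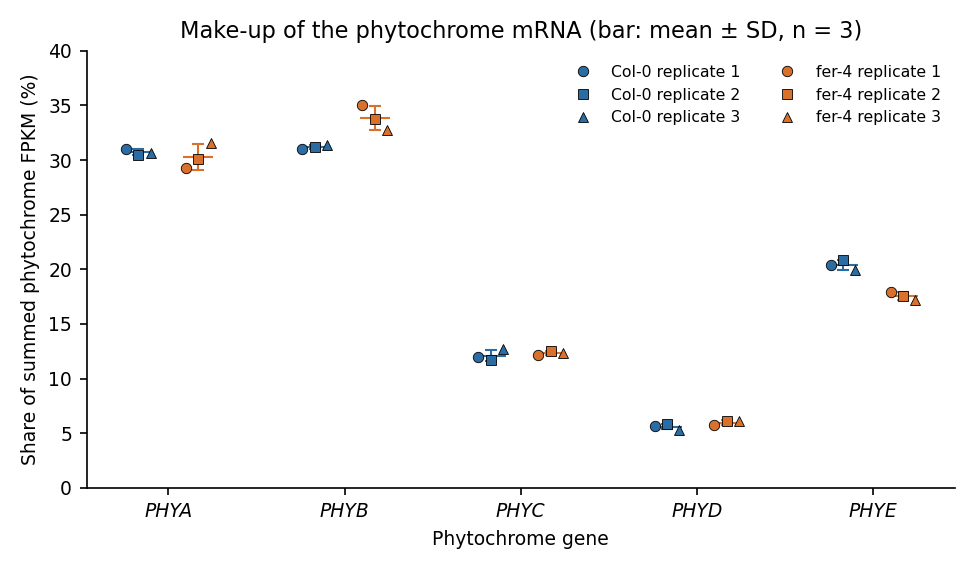
Share of each phytochrome gene (x axis) in the summed phytochrome FPKM of its library in percent (y axis), with points for the 3 libraries of each genotype and bars for the mean and SD. The *fer-4* points of *PHYE* lie below those of Col-0 and the *fer-4* points of *PHYB* above, while *PHYA*, *PHYC* and *PHYD* overlap.

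*UVR8* (AT5G63860, chromosome 5, 25554416 to 25559499, minus strand) had levels of 35.7, 38.9 and 37.6 FPKM in Col-0 seedlings against 35.5, 36.4 and 36.7 FPKM in *fer-4* seedlings. The groups overlapped, and this shortest photoreceptor transcript had the smallest difference between *fer-4* replicate 1 and the other *fer-4* libraries (-0.04 on the log2 scale). The log2 fold change of *UVR8* was -0.05 (95% confidence interval -0.22 to 0.13, adjusted p = 0.67, limma), which bounds a decrease at 0.22 on the log2 scale. Adjusted for length it was 0.00 (adjusted p = 0.998).

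Genes that act with the receptors, genes of the UV-B response and 5 further receptor genes were described by 7 lists with 71 genes, of which 69 were tested. Of these 24 fell, 4 rose and 41 did not pass by the criterion used for the photoreceptor genes, with a median log2 fold change of -0.26, where 16.0% of all tested genes fell and 18.0% rose. Without *fer-4* replicate 1, 4 rose and 25 fell, against 19.9% and 18.7% of all tested genes, and with the length adjustment 5 rose and 32 fell, against 23.4% and 19.9%. These shares also stand behind the counts of each list below. The number that fell was 14 without Col-0 replicate 2 or Col-0 replicate 3, and the number that rose was 2 without Col-0 replicate 1 or Col-0 replicate 2. With a filter of 1 FPKM, 3 rose. Calls over all tested genes also dropped, from 3170 that fell to 1938, 2057 and 2057 without Col-0 replicates 1, 2 and 3. Without *fer-4* replicate 3, 2456 fell. The genes that rose dropped from 3569 to 2473 and 2609 without Col-0 replicates 1 and 2. These numbers stand behind the list counts below that leave out such a library. In these bulk libraries, fewer cells of a type and less RNA per cell cannot be told apart.

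Of 16 phototropin partners, 9 fell, 2 rose and 5 did not pass, with a median log2 fold change of -0.43, or -0.32 without *fer-4* replicate 1, against 16.0% of all tested genes that fell and 18.0% that rose. *NCH1*, which mediates chloroplast accumulation, had levels of 56.4, 57.4 and 61.7 FPKM in Col-0 seedlings against 30.6, 35.96 and 36.1 FPKM in *fer-4* seedlings, and fell by 0.78 (log2, standard error 0.09, adjusted p = 5.3e-04, limma). *NPH3*, the signal carrier that binds phot1 in phototropism, averaged 14.2 ± 0.985 FPKM in Col-0 seedlings against 8.97 ± 1.56 FPKM in *fer-4* seedlings (SD, n = 3) and fell by 0.67 (adjusted p = 0.00636). *ABCB19*, an auxin transporter that phot1 phosphorylates, fell by 0.70 (adjusted p = 0.00991). *PMI2*, *KAC1*, *WEB1*, *PMI1* and *THRUMIN1*, which act in chloroplast movement, and *RPT2*, an NPH3 relative, made up the rest that fell, between -0.32 and -0.59. *KAC1* moved from -0.57 to -0.37 without *fer-4* replicate 1 (adjusted p = 0.00872). The genes that rose both belong to stomatal opening in blue light. *BLUS1*, a kinase substrate of phototropins in guard cells, had levels of 5.86, 6.14 and 7.82 FPKM in Col-0 seedlings against 9.60, 9.55 and 9.23 FPKM in *fer-4* seedlings and rose by 0.52 (adjusted p = 0.0145). *BHP*, a kinase that binds BLUS1, had levels of 21.6, 22.1 and 23.6 FPKM in Col-0 seedlings against 29.6, 37.9 and 53.4 FPKM in *fer-4* seedlings and rose by 0.80 (adjusted p = 0.0131). *BLUS1* no longer passed without Col-0 replicate 1 (adjusted p = 0.0668) or Col-0 replicate 2 (adjusted p = 0.0613). Without Col-0 replicate 3, 5 phototropin partners fell. The number was 9 without *fer-4* replicate 1 too, with *KAC2* (adjusted p = 0.0497) in place of *RPT2* (adjusted p = 0.0622), and 12 with the length adjustment.

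Of 15 tested phytochrome partners, 5 fell, 10 did not pass and none rose, against 16.0% of all tested genes that fell, with a median log2 fold change of -0.18, or -0.11 without *fer-4* replicate 1. The number that fell was 2 without Col-0 replicate 2 and 3 when Col-0 replicate 1, *fer-4* replicate 3 or Col-0 replicate 3 was left out. *HFR1*, a repressor of PIF activity in shade and seedling responses, had levels of 8.20, 9.04 and 8.55 FPKM in Col-0 seedlings against 2.30, 3.24 and 3.30 FPKM in *fer-4* seedlings. It fell by 1.53 (log2, standard error 0.16, adjusted p = 2.0e-04, limma), and by 1.37 without *fer-4* replicate 1. *PCHL*, whose protein slows the dark reversion of phyB, fell by 1.19 (adjusted p = 0.00105) from 4.33 ± 0.380 to 1.86 ± 0.338 FPKM (SD, n = 3). *PIF4*, a growth-promoting transcription factor removed by active phyB, had levels of 33.3, 36.7 and 34.5 FPKM in Col-0 seedlings against 21.4, 29.1 and 20.8 FPKM in *fer-4* seedlings, and fell by 0.57 (adjusted p = 0.0126, and 0.0512 without Col-0 replicate 2). *PIF5* and *HMR* were the others that fell, by 0.42 and 0.34, and *PIF5* by 0.27 without *fer-4* replicate 1 (adjusted p = 0.0218). *PIF1*, *PIF3* and *PIF7* had log2 fold changes of -0.25, -0.05 and -0.11 and did not pass (adjusted p = 0.201, 0.817 and 0.474).

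Of 4 tested genes of the bilin chromophore pathway, *HO1* fell, *HO3* rose and *HO2* and *HY2* did not pass, against 16.0% of all tested genes that fell and 18.0% that rose. *HO1*, the main heme oxygenase that opens heme to biliverdin, had levels of 119.4, 115.4 and 119.4 FPKM in Col-0 seedlings against 86.0, 81.4 and 72.9 FPKM in *fer-4* seedlings, and fell by 0.56 (log2, standard error 0.09, adjusted p = 0.00189, limma). *HY2*, which reduces biliverdin to phytochromobilin, averaged 10.02 ± 0.918 FPKM in Col-0 seedlings against 10.2 ± 0.436 FPKM in *fer-4* seedlings (SD, n = 3, adjusted p = 0.83). *HO3*, chosen after its values were seen because it is the single member that rose, averaged 0.455 ± 0.0617 FPKM in Col-0 seedlings against 1.13 ± 0.282 FPKM in *fer-4* seedlings (SD, n = 3). It is near the floor and passed the filter of 0.5 FPKM only through its *fer-4* values, so its call carries little weight. With a filter of 1 FPKM no gene of this list was called as risen.

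Of 8 cryptochrome partners, 1 fell and 7 did not pass, against 16.0% of all tested genes that fell, with a median log2 fold change of -0.12. The median was -0.01 without *fer-4* replicate 1 and -0.05 with the length adjustment, under which 3 fell and 1 rose, the kinase gene *PPK1* (0.20, adjusted p = 0.0491), named after its values were seen. *CIB1*, a transcription factor that binds CRY2 in blue light and promotes flowering, had levels of 7.48, 6.87 and 8.23 FPKM in Col-0 seedlings against 0.0315, 1.14 and 0.548 FPKM in *fer-4* seedlings. Its log2 fold change was -4.01 (standard error 0.69, adjusted p = 0.00313, limma) on the log2(FPKM + 0.1) scale, -2.50 with a pseudocount of 1 and -3.08 without *fer-4* replicate 1. In the fit without *fer-4* replicate 1, 3 cryptochrome partners fell. The genes added, named here after their values were seen, were *BIC1* and *BIC2*, whose proteins inhibit cryptochromes, with log2 fold changes of -0.46 and -0.47 in that fit (adjusted p = 0.00736 and 0.0153) and of -0.30 and -0.33 in all 6 libraries (adjusted p = 0.15 and 0.102).

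Of 12 genes of the UVR8 pathway and the UV-B response, 6 fell, 6 did not pass and none rose, with a median log2 fold change of -0.36, against 16.0% of all tested genes that fell, and 3 fell without Col-0 replicate 3. *FLS1*, which makes flavonols, had levels of 84.0, 78.8 and 76.5 FPKM in Col-0 seedlings against 47.7, 46.6 and 37.7 FPKM in *fer-4* seedlings and fell by 0.86 (log2, standard error 0.11, adjusted p = 6.0e-04, limma). *ELIP2*, an early light-induced chlorophyll-binding protein gene, had levels of 136.6, 148.5 and 69.4 FPKM in Col-0 seedlings against 36.7, 18.6 and 33.5 FPKM in *fer-4* seedlings and fell by 1.98 (adjusted p = 0.00276). *RUP1*, whose protein returns UVR8 to its inactive dimer, fell by 0.63 (adjusted p = 0.0354), but did not pass without Col-0 replicate 2 or 3 or without *fer-4* replicate 1 or 2 (adjusted p = 0.106, 0.116, 0.0938 and 0.0982). *RUP2*, *MYB12* and *UVR3* also fell. *HY5*, the transcription factor that UV-B signaling induces, averaged 28.4 ± 2.13 FPKM in Col-0 seedlings against 29.9 ± 3.62 FPKM in *fer-4* seedlings (SD, n = 3, adjusted p = 0.665), and *CHS*, the entry enzyme of flavonoid synthesis, had a log2 fold change of 0.19 (adjusted p = 0.237).

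**Figure D5:**
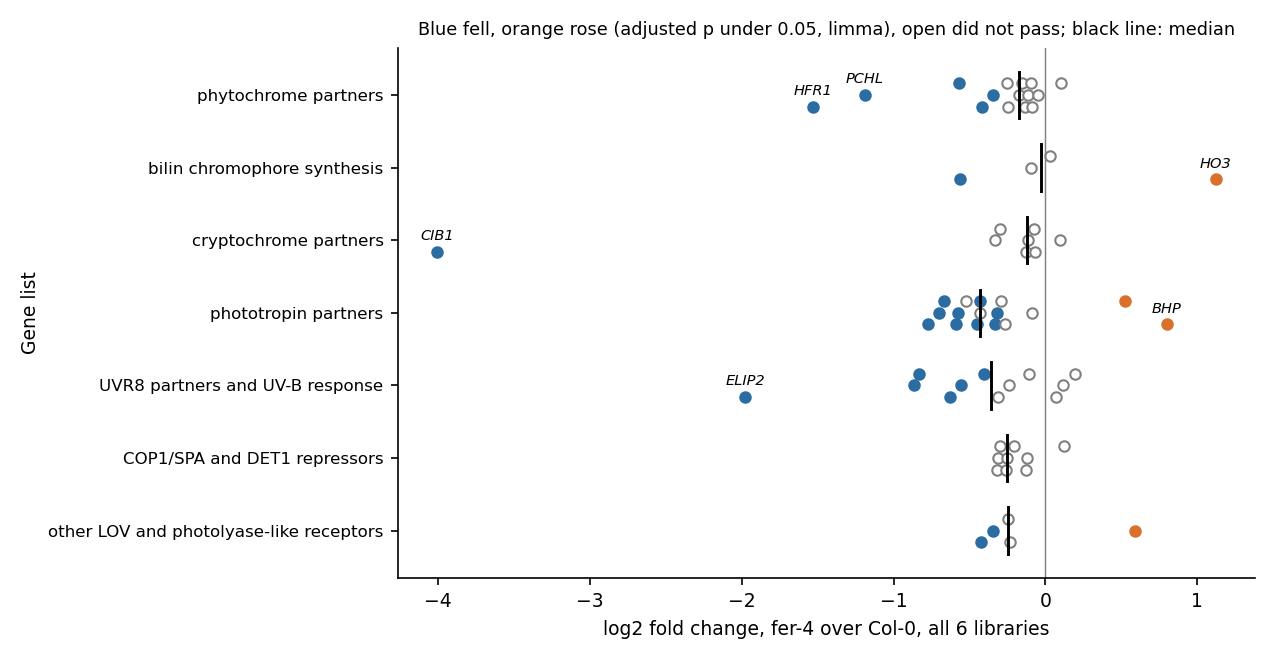
log2 fold change between *fer-4* and Col-0 in all 6 libraries (x axis) for the 69 tested genes of the 7 lists (y axis), with filled points for genes that passed an adjusted p under 0.05 by limma and black lines for the list medians. The medians run from -0.43 (phototropin partners) to -0.03 (bilin chromophore synthesis), and *CIB1*, *ELIP2* and *HFR1* lie farthest to the left.

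Marker genes of seedling tissues also differed between the genotypes, and their part in the photoreceptor results was not tested. Over all tested genes 16.0% fell and 18.0% rose, and these shares stand behind each marker count here. Of 7 mesophyll chloroplast markers, 6 fell, and their summed level was 36390 to 39780 FPKM in Col-0 and 22900 to 28180 FPKM in *fer-4*. Both shoot epidermis markers fell (sum 190.5 to 215 FPKM in Col-0, 94.0 to 105.5 FPKM in *fer-4*), and the guard cell markers were mixed. *FAMA* and *KAT1* rose (0.51 and 0.73 on the log2 scale), *HT1* did not pass (0.44), and *MYB60* was at -0.31, which passed with the length adjustment alone (adjusted p = 0.0175), with sums of 24.4 to 28.5 FPKM in Col-0 and 30.9 to 37.9 FPKM in *fer-4*. In the root, 3 of 5 root hair markers and 3 of 5 endodermis markers fell, with sums of 33.0 to 37.0 and 112.3 to 116.2 FPKM in Col-0 and of 14.4 to 20.7 and 65.1 to 84.9 FPKM in *fer-4*. Of 5 root tip markers *WOX5* rose (0.988 to 3.13 FPKM on average), and *PLT1*, *PLT2*, *SMB* and *BRN1* had log2 fold changes of -0.42, -0.13, -0.61 and -0.13 that did not pass, with sums of 6.33 to 6.73 FPKM in Col-0 and 6.64 to 8.73 FPKM in *fer-4*. Of 2 stele markers none passed (50.9 to 51.9 and 41.9 to 50.5 FPKM). Of 4 tested senescence markers *SAG13* rose from 1.76 to 197.3 FPKM on average and *NAC092* from 9.07 to 24.3 FPKM. *SGR1* (20.9 and 19.2 FPKM) and *PAO* (72.1 and 73.4 FPKM) did not pass, so the higher sum in *fer-4* (83.9 to 126.7 and 284.3 to 335.6 FPKM) was mostly *SAG13*, and *SAG12*, the defining marker of senescent leaves, was listed at 0 in every library. *SESA1*, the 1 seed marker tested, was at 0 in every Col-0 library and averaged 1.63 FPKM in *fer-4*. It passed the filter of 0.5 FPKM through its *fer-4* values alone, so it could not have been called lower, and its rise is no test of the seed markers. *CRA1*, *CRU3* and *OLEO1* were below that filter. All 4 seed markers summed to 0.00 to 0.303 FPKM in Col-0 and to 2.06 to 3.06 FPKM in *fer-4*. Marker calls were equal in number without *fer-4* replicate 1, where 18.7% of all tested genes fell and 19.9% rose. With the length adjustment 7 mesophyll markers and 1 guard cell marker fell, and the other counts were equal. Over all tested genes 19.9% fell and 23.4% rose in that fit. The marker genes named here were chosen after their values were seen.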

How the data were processed

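RNA was sequenced from whole seedlings, 3 libraries for each genotype, which the methods call biological replicates. The values the authors deposited are FPKM, and STAR 2.5, Cufflinks 2.2.1 and TAIR10 are named in the submitters' processing notes, and reads were trimmed before mapping. The kit was directional, but whether counting used strand is not stated in the labels or the methods. Labels write the light unit as mmol and the methods as μmol. A further deposited table with group means, log2 fold changes, p-values and q-values made by the authors was not used.

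Genes averaging 0.5 FPKM or more were tested. The fit of log2(FPKM + 0.1) used limma 3.58.1 (R 4.3.3) and an intensity trend, 2-sided, with Benjamini-Hochberg adjustment over all genes tested. FPKM is not a count, so no count test was used. Fold changes on the log2(FPKM + 0.1) scale understate those of low genes. For the length adjustment, chosen after seeing the data, a lowess curve (span 0.3) of each library's deviation on log2 median transcript length (RefSeq, TAIR10.1) was taken off. Of the tested genes, 19695 had such a length. Ratios and shares were compared by exact permutation. Depth is unknown, so no counting interval is given. The fit was also run on simulated data, drawn for each gene separately. These held no transcript length difference between libraries, so they say nothing about how the fit handles that of *fer-4* replicate 1. Other tools were matplotlib 3.10.9, SciPy 1.17.1, numpy 2.4.6, pandas 2.3.3 and Python 3.11.15.

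Sequences and positions are from RefSeq, TAIR10.1, in which all 10 genes were found. Coding sequences were aligned in pairs with MAFFT. The photoreceptor genes and the partner and marker lists were chosen with earlier results of these data known. Named in the text are all 10 photoreceptor genes, *FER*, and up to 3 genes that rose and 3 that fell in each partner list, by size of change where the higher group averaged 2 FPKM or more. Other members are named to complete a count or a pathway step, after their values were seen. Alternatives were other pseudocounts, filters and scalings, no intensity trend, a replicate block, leaving out each library, and the length adjustment.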

Additional observations from a re-analysis of the deposited data

How the results depend on the processing

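*PHOT1* fell under each of the 15 alternatives, with log2 fold changes from -0.80 to -0.50. *CRY2* fell under 14 and missed the threshold without Col-0 replicate 2. *PHYE* was lost under 7 alternatives, among them a pseudocount of 0.01 (adjusted p = 0.0508), no filter on low values (0.0614) and no intensity trend (0.0731), all by limma. *PHOT2* passed under 6 alternatives and *CRY1* under 4. The photoreceptor genes that fell numbered 5 with quantile normalization, upper quartile scaling or the length adjustment. In these fits 4203, 3971 and 3948 of 19839 tested genes fell. With a library left out, 1 (without Col-0 replicate 2) to 5 photoreceptor genes fell. None rose under any alternative. Leaving out 1 library, all genes that fell ranged from 1938 to 3708 and those that rose from 2473 to 3947. Among the listed partner, UV-B response and further receptor genes, those that fell ranged from 14 to 25 and those that rose from 2 to 4. When a library was left out, the log2 fold change ranged from -0.1971 to 0.0589 for *PHYB*, from -0.2973 to 0.0077 for *PHYC* and from -0.2332 to 0.087 for *PHYD*, and was above 0 only without *fer-4* replicate 1. With the length adjustment it was 0.1127 for *PHYB* and 0.0845 for *PHYD*. The genotype difference ranged from -0.0623 to 0.0298 in the *PHYD* to *PHYB* log2 ratio (0.00126 with a pseudocount of 1), from -0.198 to 0.000334 in that of *PHOT1* to *PHOT2*, and from -1.07 to 0.105 percentage points in the *PHYA* share. The cause was not tested. Samples with the same replicate number did not deviate together (Pearson's r across genes of -0.04, 0.04 and -0.07), and with the replicate block 4 photoreceptor genes fell, 3404 genes rose and 2986 fell. The unknown depth limits how firmly the lowest genes can be read.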

Other observations

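Of 9 genes of the COP1/SPA and DET1 repressor complexes, which break down light-signaling transcription factors in the dark, none passed in the 6 libraries (limma, adjusted p under 0.05), with a median log2 fold change of -0.25. At an unadjusted p under 0.05, 3 of the 9 were lower (*COP1*, *SPA4* and *DET1*), against 21.3% of all tested genes. Without *fer-4* replicate 1 none passed either, with a median of -0.07, and with the length adjustment 1 fell. *COP1*, the ubiquitin ligase that cryptochromes, phytochromes and UVR8 act on, had levels of 22.0, 22.2 and 21.5 FPKM in Col-0 seedlings against 14.8, 19.6 and 18.9 FPKM in *fer-4* seedlings without overlap. Its log2 fold change was -0.32 (adjusted p = 0.0709, limma), -0.19 without *fer-4* replicate 1 (adjusted p = 0.0537) and -0.24 with the length adjustment (adjusted p = 0.0214).

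Of 5 further receptor genes with a LOV or photolyase-like domain, 2 fell, 1 rose and 2 did not pass, against 16.0% of all tested genes that fell and 18.0% that rose. *ZTL*, a blue light-sensing F-box protein gene of the circadian clock, had levels of 26.7, 27.7 and 26.0 FPKM in Col-0 seedlings against 19.8, 21.4 and 22.1 FPKM in *fer-4* seedlings and fell by 0.35 (log2, adjusted p = 0.0137, limma). *FKF1*, its paralog in the timing of flowering, had levels of 1.53, 1.56 and 1.68 FPKM in Col-0 seedlings against 2.38, 2.35 and 2.61 FPKM in *fer-4* seedlings and rose by 0.59 (adjusted p = 0.0161). *PLPB* fell by 0.42 (adjusted p = 0.0339), and did not pass without *fer-4* replicate 1 (adjusted p = 0.0746), *fer-4* replicate 2 (0.0847) or any of the Col-0 replicates (0.0568 to 0.125). *ZTL* and *FKF1* no longer passed without Col-0 replicate 1 (adjusted p = 0.059 and 0.0682) or Col-0 replicate 2 (adjusted p = 0.0677 and 0.0619).

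*CIB1* (AT4G34530) and *PCHL* (AT4G34550), both lower in *fer-4*, lie on either side of AT4G34540 on chromosome 4. This neighbor, looked up after those values were seen, averaged 8.41 ± 0.213 FPKM in Col-0 seedlings against 9.07 ± 0.545 FPKM in *fer-4* seedlings (SD, n = 3, adjusted p = 0.415, limma).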
